A study of Mus musculus with 3 samples.

Results

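Goblet cells are the mucus-secreting cells of the intestinal epithelium, and 321 of the 14387 cell barcodes of this single-cell RNA sequencing study of mouse small intestinal crypts met the rule for them. The cells were chosen by their transcript counts alone, among them those of 5 mucus genes. A barcode needed at least 500 genes, at least 1000 unique molecular identifiers (UMIs, tags that each mark a captured transcript) and at most 20% mitochondrial UMIs. It also needed at least 2 UMIs of *Epcam*, an epithelial adhesion gene, none of the leukocyte gene *Ptprc* and fewer than 2 of the proliferation gene *Mki67*. The summed UMIs of *Muc2*, *Fcgbp*, *Clca1*, *Zg16* and *Tff3* had to reach 0.5% of its total, the Paneth cell genes *Lyz1*, *Mptx2* and *Itln1* had to stay under 5%, and the enteroendocrine granins *Chga* and *Chgb* under 0.1%. In the KO 220 barcodes passed, in the rescue 39 and in the control 62, each from a library of its own.

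The study asked how CDC42, a small GTPase that organises apical-basal polarity, acts in the intestinal epithelium, and whether the transcriptional co-activators YAP and TAZ take part. There was 1 library per genotype, from crypts of adult C57BL/6 mice of 2 to 3 months. All carried Olfm4-IRES-eGFPCreERT2, an inducible Cre recombinase under *Olfm4*, a gene of crypt base stem cells, so that a goblet cell can carry a deletion by descent from a recombined stem cell. The KO had 2 floxed *Cdc42* alleles (CDC42flox/flox). The rescue had the same *Cdc42* genotype together with Yapflox/flox and Tazflox/+, which floxes both alleles of *Yap1* and 1 allele of *Wwtr1*. The control was heterozygous (CDC42+/flox), so that it carried 1 floxed *Cdc42* allele as well. Whether the cells of a library came from 1 animal or a pool, and when Cre was induced, is not stated in the sources at hand. With 1 library per genotype there was no replicate check and no test of any difference, and all 95% intervals cover counting error only. Genotype, animal, sex and library preparation cannot be told apart.

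Goblet cells arise in the crypt from secretory progenitors that escape Notch signalling and turn on *Atoh1*, and *Spdef* drives their later maturation. They fold the gel-forming mucin MUC2 in the endoplasmic reticulum, glycosylate it in the Golgi and store it in apical granules that are released onto the villus surface. FCGBP, CLCA1, ZG16 and the trefoil peptide TFF3 are packed into the same mucus. Stomach surface cells make a different set, with the mucin MUC5AC and the trefoil peptide TFF1.

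The goblet cells held 5605165 UMIs in the KO, 1413572 in the rescue and 1425505 in the control, with median depths of 21642.5, 30720 and 22951 UMIs per cell in the same order. The mitochondrial limit removed 54.1% of all KO barcodes, 38.3% of rescue barcodes and 66.3% of control barcodes, and the median mitochondrial share of the goblet cells left was 7.09%, 8.44% and 13.3%. Between 3 and 11 barcode sequences were shared by a pair of libraries, none of them a goblet cell. Levels are in CPM, for which the UMIs of a gene in the pooled goblet cells of a library are divided by all UMIs of that pool and scaled to the same total in each library. *Cdc42* stood at 284 CPM in KO, 297 CPM in rescue and 199 CPM in control goblet cells. Reads at the 3' end do not check a deletion elsewhere in the gene, so this level says nothing on the KO label. *Yap1* had 18.7 CPM in KO, 12.7 CPM in rescue and 30.9 CPM in control goblet cells, and *Wwtr1* had 13.6, 3.54 and 10.52 CPM. The libraries differed in sex-linked genes, with 287 CPM of *Xist* and 0 of *Ddx3y* in KO goblet cells, 438 and 4.24 in rescue and 1.40 and 93.3 in control goblet cells.

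Goblet cells made up 14.6% of epithelial barcodes in the KO (95% exact binomial interval 12.9 to 16.5%, 220 of 1504), 5.37% in the rescue (3.85 to 7.27%, 39 of 726) and 12.0% in the control (9.36 to 15.2%, 62 of 515). The KO and control intervals overlapped, and the rescue interval lay below both. These denominators include barcodes that the *Mki67* limit bars from the goblet class. That limit was met by 1291 of 1504 epithelial barcodes in the KO, 479 of 726 in the rescue and 438 of 515 in the control. The low rescue share depended on the mitochondrial limit. At a limit of 10% the shares were 17.2% in the KO, 13.6% in the rescue (8.83 to 19.7%, 23 goblet cells) and 14.4% in the control, and without any limit 11.3%, 3.79% and 5.21%. A further 114 KO, 15 rescue and 78 control barcodes met every other part of the rule but exceeded the mitochondrial limit. The limit on *Mki67* removed 10 KO, 11 rescue and 12 control barcodes. The granin limit removed 8 KO and 3 control barcodes, and the Paneth cell limit removed none.

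Because the 5 mucus genes chose the cells, their levels are given as a description. The 5 genes took a median of 23.3% of a cell's UMIs in the KO, 17.0% in the rescue and 6.67% in the control, with ranges of 0.542 to 53.6%, 0.519 to 55.8% and 0.574 to 38.1%. All 3 libraries therefore held lightly and heavily loaded barcodes under the rule, and a larger share of those in the KO was heavily loaded. In the KO 162 of 220 cells (73.6%) had at least 10% of their UMIs in these genes, in the rescue 24 of 39 (61.5%) and in the control 22 of 62 (35.5%). The 31 KO barcodes with 0.5 to 2% had a median depth of only 2526 UMIs. In this class the 5 rescue barcodes had a median of 30720 UMIs and the 9 control barcodes 21901. Whether such shallow KO barcodes are goblet cells was not tested. Just inside the threshold, below 0.75%, lay 16 KO, 1 rescue and 3 control cells, and just outside it, between 0.25 and 0.5%, lay 57 KO, 3 rescue and 16 control cells. The remaining epithelial cells had medians of 0.0305% in the KO, 0.00712% in the rescue and 0.0117% in the control, and immune barcodes, which stand for free RNA, had 0.105%, 0.0163% and 0.0310%.

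**Figure D1:**
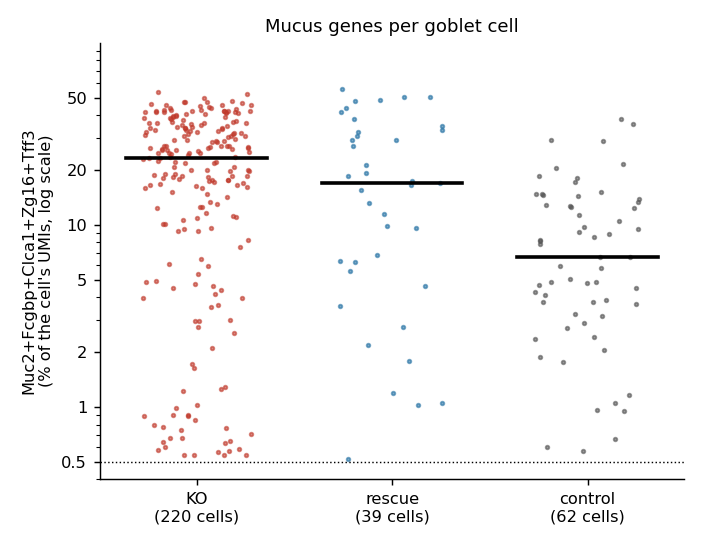
Share of each goblet cell's UMIs in the 5 mucus genes, in percent on a log axis, for KO, rescue and control; each point is a cell, each bar the median and the dotted line the 0.5% threshold of the rule. The medians are 23.3% in the KO, 17.0% in the rescue and 6.67% in the control, and all 3 libraries reach from the threshold to at least 38.1%.

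Of the 5 mucus genes, the lectin gene *Zg16* had the largest ratio of the KO over the control and *Tff3* the smallest. *Zg16* stood at 95857 CPM in KO, 61846 in rescue and 25255 in control goblet cells, and *Clca1*, a mucus-processing protease, at 12794, 5657 and 4048 CPM. *Muc2* itself had 10314 CPM in the KO, 7133 in the rescue and 4859 in the control, *Fcgbp* 27435, 22916 and 13087, and *Tff3* 60055, 42269 and 33995. *Zg16* went undetected in 0 KO, 2 rescue and 12 control cells. Among cells with at least 10% of their UMIs in the 5 genes *Zg16* stood at 130338 CPM in the KO, 127629 in the rescue and 82874 in the control. *Muc2* stood at 13483, 12891 and 9857 CPM. The libraries lay closer there, but the class is cut on the sum of these same genes, which itself draws their levels together. Together the 5 genes took 20.6% of all goblet cell UMIs in the KO, 14.0% in the rescue and 8.12% in the control, which left a smaller part of each pool for all other genes. Other genes took unequal parts as well. Alpha-defensin genes of Paneth cells held 1.04% of goblet cell UMIs in the KO, 0.295% in the rescue and 8.08% in the control. The median log2 ratio over all measured genes is given beside each comparison for these reasons.

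Genes outside the rule showed goblet cell identity in the pooled cells of every library, which does not show it for each cell. *Agr2*, a disulfide isomerase needed to make MUC2, had 11429 CPM in KO, 11350 in rescue and 10641 in control goblet cells, against 202, 238 and 333 CPM in the other epithelial cells. The calpain gene *Capn9* stood at 192, 110.4 and 126 CPM in KO, rescue and control goblet cells and at 1.52 CPM or less in the other epithelial cells. The fate genes followed the same pattern. *Atoh1* had 115 CPM in KO, 86.3 in rescue and 89.1 in control goblet cells and at most 5.78 CPM elsewhere, and *Spdef* had 225, 112 and 164 CPM and at most 12.5 elsewhere. *Agr2* and *Atoh1* differed by less than 1.5-fold in each pair of libraries, and *Spdef* was 2.02-fold lower in rescue than in KO goblet cells. Of 782 genes with at least 100 CPM in the goblet cells of all 3 libraries, 70 were at least 2-fold and 39 at least 4-fold above the other epithelial cells in each of them.

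Markers of other cell types were present beside this goblet cell signature. The 13 enterocyte markers summed to 27417 CPM in KO, 10292 in rescue and 1750 in control goblet cells, compared with 82978, 18259 and 27926 CPM in the other epithelial cells and 2893, 1052 and 977 CPM in immune barcodes. In KO cells with at least 10% mucus UMIs this sum was 14205 CPM, and in KO cells with 2 to 10% it was 64292 CPM at a median depth of 55783 UMIs. The 9 Paneth markers in the files summed to 9376, 3791 and 49591 CPM in KO, rescue and control goblet cells. T cell, plasma and B cell, macrophage, stromal and endothelial lists each summed to at most 208 CPM in any goblet pool, and the stromal markers were all at 0 in rescue and control goblet cells. Erythroid markers reached 3545 CPM in the rescue, from 1 cell, against 13.4 CPM in KO and 35.1 CPM in control goblet cells. The part of these markers in the results that follow was not tested.

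Alpha-defensins, the antimicrobial peptides of Paneth cells, had an unequal place in the libraries. The 19 alpha-defensin genes summed to 10403 CPM in KO, 2950 in rescue and 80816 in control goblet cells, against 7.70, 24287 and 131588 CPM in the other epithelial cells. In the KO 99.3% of epithelial alpha-defensin UMIs lay in cells that met the goblet rule, in the rescue 0.445% and in the control 4.86%. They came from few cells. Cells with at least 1% alpha-defensin UMIs numbered 16 of 220 in the KO, 5 of 39 in the rescue and 11 of 62 in the control, and held between 69.4 and 98.5% of these UMIs in each library. The highest share in a single cell was 37.3% in the KO, 2.22% in the rescue and 70.7% in the control. The Paneth cell limit of the rule does not count alpha-defensins, and whether such barcodes are goblet cells was not tested. *Defa24* had 5751 CPM in KO, 2839 in rescue and 40719.6 in control goblet cells, and *Lyz1*, the Paneth cell lysozyme, had 2229.6, 117 and 2727. Among cells with at least 10% mucus UMIs *Defa24* stood at 6163 CPM in the KO, 3219 in the rescue and 4043 in the control. These paralogs are nearly identical and reads can be split among them.

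For the KO against the control, 8712 genes had at least 20 UMIs in at least 1 of the 2 goblet pools, of which 1195 (13.7%) were at least 2-fold higher and 1695 (19.5%) at least 2-fold lower in the KO, with a median log2 ratio of -0.23. Genes of stomach surface cells and of injured or fetal-like epithelium were higher in KO goblet cells, several of them with no UMI in control goblet cells. Of 18 gastric-type genes 7 were measured, all 7 at least 2-fold higher in the KO beside a background of 13.7%, with a median log2 ratio of 5.62 (4.52 with genes at 0 placed at a floor of 3 UMIs per pool). All 7 reached 20 UMIs in the KO pool and none of them in the control pool, so they were measured through the pool in which they were high, and the count is no support for the list. The other 11 are not called. *Tff1*, the stomach trefoil peptide on chromosome 17 (31161395 to 31165277, minus strand, GRCm38), had 571 CPM in KO goblet cells and no UMI in rescue or control goblet cells, at least 272-fold above the control. *Tff3* lies nearby (31125306 to 31129646 on the same strand), with *Tff2* (31141049 to 31144282) between them. *Tff1* was found in 50 of 220 KO goblet cells, and 3 UMIs, the floor for 0, would be 2.12 CPM in the rescue and 2.10 CPM in the control pool.

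Within the KO epithelium *Tff1* was higher in goblet cells. The other KO epithelial cells had 12.4 CPM, and after thinning every cell to 2000 UMIs 14.3% of KO goblet cells (29 of 203) held a *Tff1* UMI, against 1.28% of the other epithelial cells and 0 of 101 immune barcodes. In the rescue 0 of 38 thinned goblet cells held one, which allows a share of cells with a UMI at this depth of up to 7.89%, and in the control 0 of 59, which allows up to 5.08%. These limits are not limits on the share of cells that express the gene. Unthinned, the counts were 50 of 220 goblet cells, 108 of 1284 other epithelial cells and 1 of 105 immune barcodes. *Tff1* was at 155, 156 and 755 CPM in KO cells with 0.5 to 2%, 2 to 10% and at least 10% of mucus UMIs, so that it was highest in the most loaded cells. *Cldn18*, a stomach tight junction gene, followed it with 48.2 CPM in 44 KO cells and none in the rescue and control, and 3.55 CPM in the other KO epithelial cells. *Capn8*, a calpain of stomach pit cells, had 59.6 CPM in KO, 15.6 in rescue and 9.82 in control goblet cells. *Psca*, a surface antigen of stomach epithelium, had 24.6, 0.707 and 1.40 CPM. Other stomach genes were low or not detected. *Muc5ac*, *Muc6*, *Tff2* and the gastrokines stayed at 13.3 CPM or less in every goblet pool and *Muc5b* was not detected in any.

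Another set was shared with the rest of the KO epithelium. *Anxa10*, an annexin of stomach epithelium, had 650.3 CPM in KO goblet cells, 1.41 in rescue and 0 in control goblet cells, and 663 CPM in the other KO epithelial cells. *Ctse*, a stomach cathepsin, had 309, 17.0 and 0 CPM in goblet cells and 271 CPM in the other KO cells. *Sprr2a3*, a small proline-rich cornified envelope gene with near-identical copies, had 1152 CPM in KO, 22.6 in rescue and 0 in control goblet cells and 1664 CPM in the other KO cells. *Ada*, adenosine deaminase, had 907, 19.8 and 1.40 CPM in goblet cells against 4409.8 CPM in the other KO cells, and the duodenal iron reductase *Cybrd1* had 326, 0 and 0 CPM against 869. The calcium carrier *S100g* had 1043 CPM in KO, 292 in rescue and 3.51 in control goblet cells against 2379.7 CPM in the other KO cells. KO immune barcodes held *Anxa10* in 14.9% of thinned cells (15 of 101), against 53.2% of KO goblet cells (108 of 203) and 61.3% of the other KO epithelial cells.

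Among the remaining high genes some rested on a minority of cells. *Ly6d*, a surface antigen, had 84.7 CPM in KO goblet cells and none in the others, from 20 cells, and only 1.801 CPM among the most loaded KO cells. *2010109I03Rik* had 309 CPM in KO, 0.707 in rescue and 0.702 in control goblet cells and was seen in 65 KO cells. *Basp1*, a membrane-bound signalling gene, was spread more widely, with 90.3 CPM in 106 KO cells, no UMI in rescue or control goblet cells and 112 CPM among the most loaded KO cells. *Ada* and *Cybrd1* were lowest in the most loaded KO cells, at 305 and 173 CPM, but stood above the same cells of the control, at 2.68 and 0 CPM.

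Of 11 measured small proline-rich and keratin genes 7 were at least 2-fold higher in KO than in control goblet cells and none lower, beside 13.7% higher and 19.5% lower over all genes, with a median log2 ratio of 2.79 (1.99 at the bound). Of these 11 genes 4 reached 20 UMIs in the KO pool and not in the control pool. *Sprr1a* had 976 CPM in KO, 2.12 in rescue and 140.3 in control goblet cells, 6.95-fold (6.04 to 8.05) higher in KO than in control goblet cells. In the other epithelial cells it had at most 20.6 CPM, so that it was a goblet-enriched transcript in both the KO and the control. Within the KO *Sprr1a* stood at 97.7, 631 and 1176 CPM with increasing mucus share. The regenerative and fetal-like list had 17 of 22 measured members at least 2-fold higher and 1 lower, with a median of 2.33 (2.19 at the bound), and 9 of the 22 reached 20 UMIs in the KO pool and not in the control pool. *S100a6*, a calcium-binding gene of injured epithelium, led this list in level, with 11840.3 CPM in KO, 1507 in rescue and 542 in control goblet cells. It was 21.8-fold (20.3 to 23.5) higher in KO than in control goblet cells, and among the most loaded cells it had 14016, 3054 and 1472 CPM. The annexins *Anxa3* and *Anxa5* had 342 and 395 CPM in KO, 78.5 and 34.0 in rescue and 63.1 and 35.8 in control goblet cells.

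The proximal promoters of 3 of these genes are shown to set a resident mucin gene beside genes that were high in KO goblet cells: *Muc2* on chromosome 7 (chr7:141690090-141690339, plus strand), *Sprr1a* on chromosome 3 (chr3:92485882-92486131, minus strand) and *Anxa10* on chromosome 8 (chr8:62123194-62123443, minus strand). Each line gives the 250 bases before the RefSeq start (GRCm38.p6), 5' to 3' on the strand of the gene. Capitals mark exact matches on either strand to 6 motifs. They are the E-box CAGCTG read by ATOH1-type factors and the letters AGATAA read by zinc-finger factors of the gut such as GATA4. The letters TGANTCA, with N for any base, are a loose form of the AP-1 site, which has C or G in the middle. Also marked were the letters GGAATG read by the TEAD partners of YAP, TGTTTAC read by FOXA factors and TTTATG read by CDX factors.
Muc2: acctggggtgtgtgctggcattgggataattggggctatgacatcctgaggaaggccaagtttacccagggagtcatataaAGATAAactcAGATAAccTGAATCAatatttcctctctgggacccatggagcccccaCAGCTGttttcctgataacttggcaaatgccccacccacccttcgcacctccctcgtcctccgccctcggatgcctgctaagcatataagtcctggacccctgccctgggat
Sprr1a: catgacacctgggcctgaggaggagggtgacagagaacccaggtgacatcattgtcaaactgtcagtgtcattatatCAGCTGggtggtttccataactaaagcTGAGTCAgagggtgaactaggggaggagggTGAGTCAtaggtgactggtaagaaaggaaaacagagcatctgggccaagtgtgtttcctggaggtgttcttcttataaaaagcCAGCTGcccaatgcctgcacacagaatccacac
Anxa10: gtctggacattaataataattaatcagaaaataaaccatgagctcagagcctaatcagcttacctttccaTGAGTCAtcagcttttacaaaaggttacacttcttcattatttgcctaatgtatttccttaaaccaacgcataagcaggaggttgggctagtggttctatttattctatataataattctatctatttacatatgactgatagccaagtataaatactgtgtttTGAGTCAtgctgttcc
The *Muc2* window held 2 GATA4 matches, 1 match to TGANTCA and an E-box. The *Sprr1a* window held 2 AP-1 matches and 2 E-boxes, and the *Anxa10* window 2 AP-1 matches. The *Muc2* match to TGANTCA reads TGAATCA, with A in the middle, whereas those of *Sprr1a* and *Anxa10* read TGAGTCA. No TEAD, FOXA or CDX letters were found in these 3 windows. Of 32851 promoter windows of the same length 6.75% held TGANTCA with any middle base, 13.0% the E-box and 9.99% the GATA4 letters. The TEAD letters were in 12.6%, the FOXA letters in 3.17% and the CDX letters in 10.8%. The matches are descriptions of sequence, and no binding was measured.

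**Figure D2:**
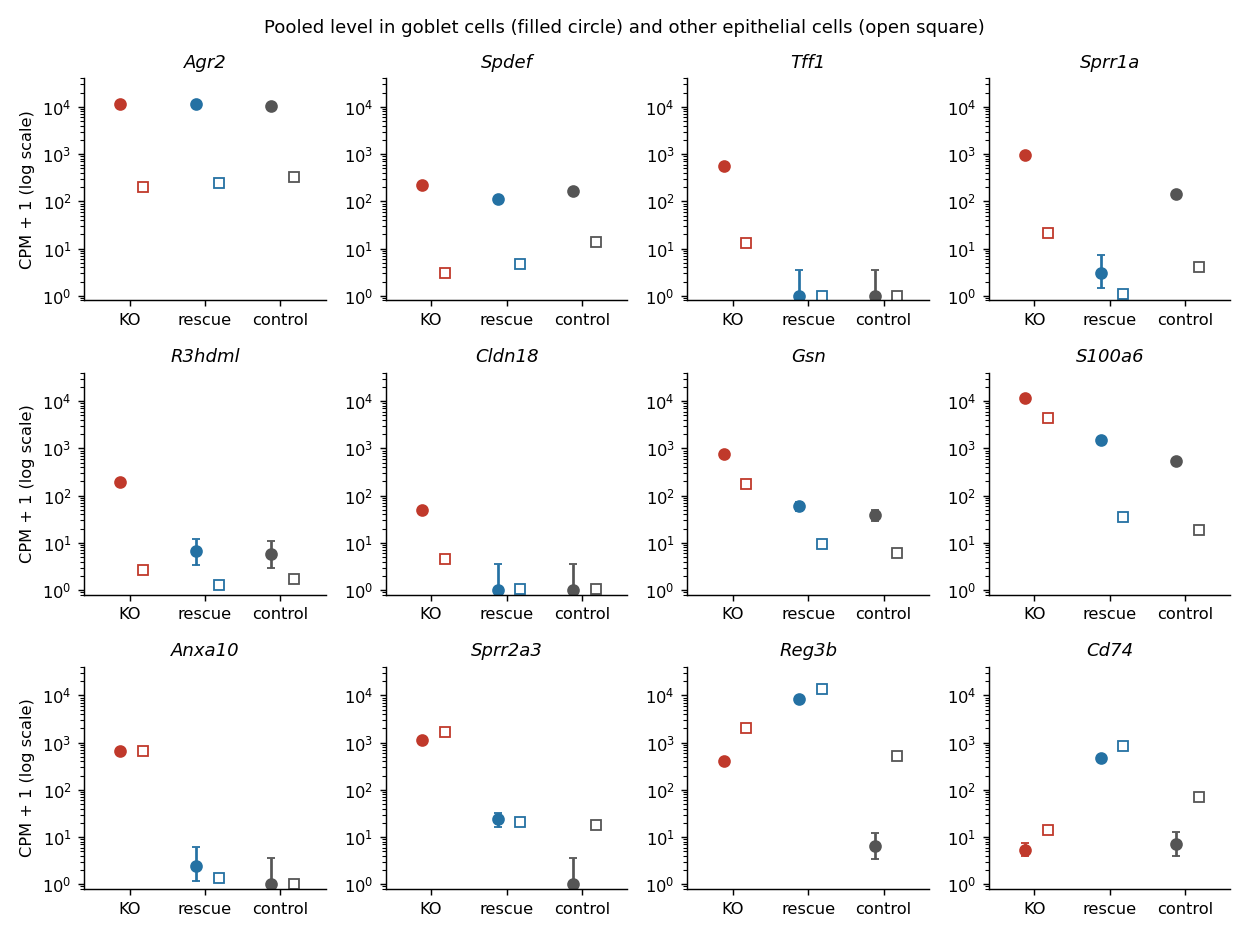
Pooled level in CPM plus 1, on a log axis, of 12 genes in goblet cells (filled circles, with 95% Poisson intervals) and in the other epithelial cells (open squares) of KO, rescue and control. *Agr2* and *Spdef* sit high in goblet cells of all 3 libraries, *Tff1*, *Cldn18* and *R3hdml* are high in KO goblet cells and lower in the other KO cells, *Anxa10* and *Sprr2a3* are similar in both KO populations, and *Reg3b* and *Cd74* are highest in the rescue in both.

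Several less familiar genes, chosen after their values were seen, were high in KO goblet cells and low in the other epithelial cells of every library. *R3hdml*, which encodes a secreted protein, had 192 CPM in KO, 5.66 in rescue and 4.91 in control goblet cells, 39.1-fold (18.9 to 97.5) higher in KO than in control goblet cells, and 1.70 CPM in the other KO cells. *Sval1*, a small secreted protein gene, had 120.2, 9.20 and 1.40 CPM in the goblet pools and 1.40 CPM in the other KO cells. *Rab3b*, a GTPase of secretory vesicles, had 109, 13.4 and 2.10 CPM, and *Cwh43* had 53.3, 3.54 and 0 CPM. *R3hdml* was found in 141 of 220, *Rab3b* in 136 and *Sval1* in 100 KO goblet cells, so that each was spread over many cells. The actin-severing gene *Gsn* had 759 CPM in KO, 58.7 in rescue and 37.2 in control goblet cells, and the lysosomal protease *Ctsl* had 651, 22.6 and 30.2 CPM. Among the most loaded cells *Gsn* kept this order, with 963 CPM in the KO, 103 in the rescue and 72.2 in the control.

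Other genes were much lower in KO goblet cells than in control goblet cells. *Rnase1*, a secreted ribonuclease, had 4.995 CPM in KO, 96.9 in rescue and 604 in control goblet cells and was 121-fold (83.1 to 183) lower in KO than in control goblet cells. *Ang4*, an antimicrobial angiogenin of Paneth and goblet cells, had 50.8, 48.8 and 1651 CPM, and was seen in 45 of 220, 9 of 39 and 35 of 62 cells. Among the most loaded cells *Ang4* stood at 55.3 CPM in the KO, 91.2 in the rescue and 1193 in the control. Without the cells of at least 1% alpha-defensin UMIs the log2 ratio of *Ang4* in the KO over the control was -4.00, against -4.99 with them. The matrix glycoprotein gene *Thbs1* had 21.8 CPM in KO, 56.6 in rescue and 659 in control goblet cells. The cystine transporter *Slc7a11* had 2.32, 6.37 and 74.4 CPM, and the activity-induced gene *Arc* 1.96, 3.54 and 66.6 CPM.

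The remaining low genes came from few control cells. The hormone gene *Ghrl* had 1089 CPM in control goblet cells almost wholly from 1 cell, and without the cell with the most UMIs of the gene in each pool its log2 ratio in the KO over the control was -1.50 in place of -9.47. The enteroendocrine factor *Insm1* was found in 7 control cells and the interferon-induced chemokine *Cxcl10* in 12, with 3.21 and 1.43 CPM in KO, 17.0 and 0.707 CPM in rescue and 96.8 and 89.8 CPM in control goblet cells. The defensin-related genes *Gm10104* and *Gm15292* had 0.178 and 0 CPM in KO, 0.707 and 1.41 CPM in rescue and 112 and 69.4 CPM in control goblet cells. They were seen in 7 and 9 control cells, and 79.8% of the control UMIs of *Gm15292* were in 1 cell.

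Goblet cell products outside the rule had 3 of 22 measured genes at least 2-fold higher and 6 at least 2-fold lower in KO than in control goblet cells, near the 13.7% and 19.5% of all genes, with a median log2 ratio of -0.32. The trypsin inhibitor *Spink4* had 14234 CPM in KO, 20627 in rescue and 26803 in control goblet cells. *Guca2a*, the precursor of the gut hormone guanylin, had 505, 1575 and 2118 CPM and was 4.19-fold (3.98 to 4.41) lower in KO than in control goblet cells. The chemokines *Ccl6* and *Ccl9* had 261 and 77.8 CPM in KO, 1203 and 219 in rescue and 959.7 and 723 in control goblet cells. The actin-severing granule gene *Scin* had 49.8 CPM in KO, 381 in rescue and 250.4 in control goblet cells, lowest in the KO, where *Gsn* was highest. Among the most loaded cells *Scin* stood at 61.0, 616 and 562 CPM and *Guca2a* at 493, 2010.2 and 2589.9, so the rescue lay near the control for both.

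Of 20 transcription factors and fate genes 7 were at least 2-fold lower in KO than in control goblet cells and none at least 2-fold higher, beside 19.5% lower and 13.7% higher over all genes, with a median log2 ratio of -0.75. Among the 20, 2 reached 20 UMIs in the control pool and not in the KO pool. *Sox9*, a factor of crypt base and Paneth cells, had 14.6 CPM in KO, 61.5 in rescue and 112 in control goblet cells. The Notch ligand *Dll1*, a mark of secretory progenitors, had 12.8, 60.1 and 96.8 CPM, and *Bhlha15*, a factor of secretory cell maturation, had 1.25, 15.6 and 16.1 CPM. *Foxa3* and *Klf4*, which mark differentiating goblet cells, had 255 and 519 CPM in the KO, 140.1 and 395 in the rescue and 179 and 486 in the control. In the most loaded cells *Dll1* stood at 4.63 CPM in the KO, 53.8 in the rescue and 82.9 in the control, and *Sox9* at 6.95, 26.1 and 112 CPM. Of 6 measured Notch pathway genes 2 were at least 2-fold lower in KO than in control goblet cells and 1 at least 2-fold higher.

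In the endoplasmic reticulum 11 of 29 measured folding and unfolded protein response genes were at least 2-fold lower in KO than in control goblet cells and none higher, beside 19.5% lower and 13.7% higher over all genes, with a median log2 ratio of -0.84. The chaperone *Hspa5* (BiP) had 721 CPM in KO, 1229 in rescue and 1306 in control goblet cells. The disulfide isomerase *Pdia6* had 232, 543 and 615 CPM and *Pdia5* 26.4, 72.9 and 173 CPM, and the stress-induced chaperone partner *Sdf2l1* 58.9, 204 and 193 CPM. *Qsox1*, a secreted disulfide oxidase, had 492, 235 and 328 CPM. In the Golgi, mucin glycosylation genes had 4 of 22 at least 2-fold higher and 3 lower in KO than in control goblet cells, near the same shares of all genes, with a median of -0.04. Among the 22, 4 reached 20 UMIs in the KO pool and not in the control pool. *Fut2*, the fucosyltransferase that puts the terminal fucose on mucins, had 66.4 CPM in KO, 14.1 in rescue and 2.81 in control goblet cells, 23.7-fold (9.16 to 87.3) higher in KO than in control goblet cells. The core branching enzyme *Gcnt3* had 382, 235 and 196 CPM.

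Of 19 measured exocytosis genes 5 were at least 2-fold higher and 2 lower in KO than in control goblet cells, beside 13.7% and 19.5% of all genes, with a median log2 ratio of 0.24. Among the 19, 4 reached 20 UMIs in the KO pool and not in the control pool. The granule SNARE *Vamp8* had 398 CPM in KO, 239 in rescue and 148 in control goblet cells. *Rab27a*, a GTPase of secretory granules, had 93.7, 63.0 and 36.5 CPM. Cell surface mucins had 4 of 5 measured members at least 2-fold higher in KO than in control goblet cells, with a median of 2.27, and 2 of the 5 reached 20 UMIs in the KO pool and not in the control pool. The membrane mucin *Muc3* had 383 CPM in KO, 77.8 in rescue and 6.31 in control goblet cells, against 755, 84.5 and 83.9 CPM in the other epithelial cells. Ion and water transport genes had 6 of 14 at least 2-fold higher and 4 lower in KO than in control goblet cells, and 7 of the 14 reached 20 UMIs in the KO pool and not in the control pool.

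Glycolysis had 11 of 15 measured genes at least 2-fold higher in KO than in control goblet cells and none lower, beside 13.7% higher and 19.5% lower over all genes, with a median log2 ratio of 1.65. Among the 15, 2 reached 20 UMIs in the KO pool and not in the control pool. *Gapdh* had 1454 CPM in KO, 836 in rescue and 335 in control goblet cells, and *Ldha* 1215, 789 and 354 CPM. Of 18 amino acid synthesis and transport genes under mTORC1 and ATF4 12 were at least 2-fold lower in KO than in control goblet cells and none higher, beside the same shares, with a median of -1.15. Among the 18, 2 reached 20 UMIs in the control pool and not in the KO pool, and 3 the reverse. Sterol synthesis genes had 1 of 21 at least 2-fold higher and none lower, fewer than these shares in both directions. Immediate early genes, which respond to tissue dissociation, had 11 of 19 at least 2-fold lower and 2 higher in KO than in control goblet cells, with *Egr1* at 199 CPM in KO, 469.7 in rescue and 1031 in control goblet cells and *Atf3* at 454, 649 and 1866 CPM.

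The pathways named in the study's title were described in goblet cells as lists. CDC42 effectors and polarity genes had 9 of 32 measured members at least 2-fold higher in KO than in control goblet cells and none lower, beside 13.7% higher and 19.5% lower over all genes, with a median log2 ratio of 0.54. Among the 32, 3 reached 20 UMIs in the KO pool and not in the control pool. The effectors *Cdc42ep2* and *Cdc42ep5* had 39.6 and 383 CPM in KO, 9.90 and 139 in rescue and 2.10 and 124 in control goblet cells. *Rab11a*, a GTPase of apical recycling, had 209, 132 and 69.4 CPM. Of 14 measured YAP and TAZ targets 4 were at least 2-fold higher and 4 lower in KO than in control goblet cells, and the median was 0.46. Of these 14 genes 6 reached 20 UMIs in the KO pool and not in the control pool. The classic target *Cyr61* had 51.6 CPM in KO, 74.99 in rescue and 328 in control goblet cells, and *F3*, tissue factor, had 17.1, 16.3 and 194 CPM. EGF ligands and receptors had 5 of 10 at least 2-fold higher and 3 lower, with 5 of the 10 measured through the KO pool alone. The receptor gene *Egfr* had 67.8, 14.9 and 9.12 CPM and the ligand gene *Btc* 83.7, 19.1 and 10.52, while *Areg*, another ligand gene, had 605, 149 and 650.3 CPM.

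**Figure D3:**
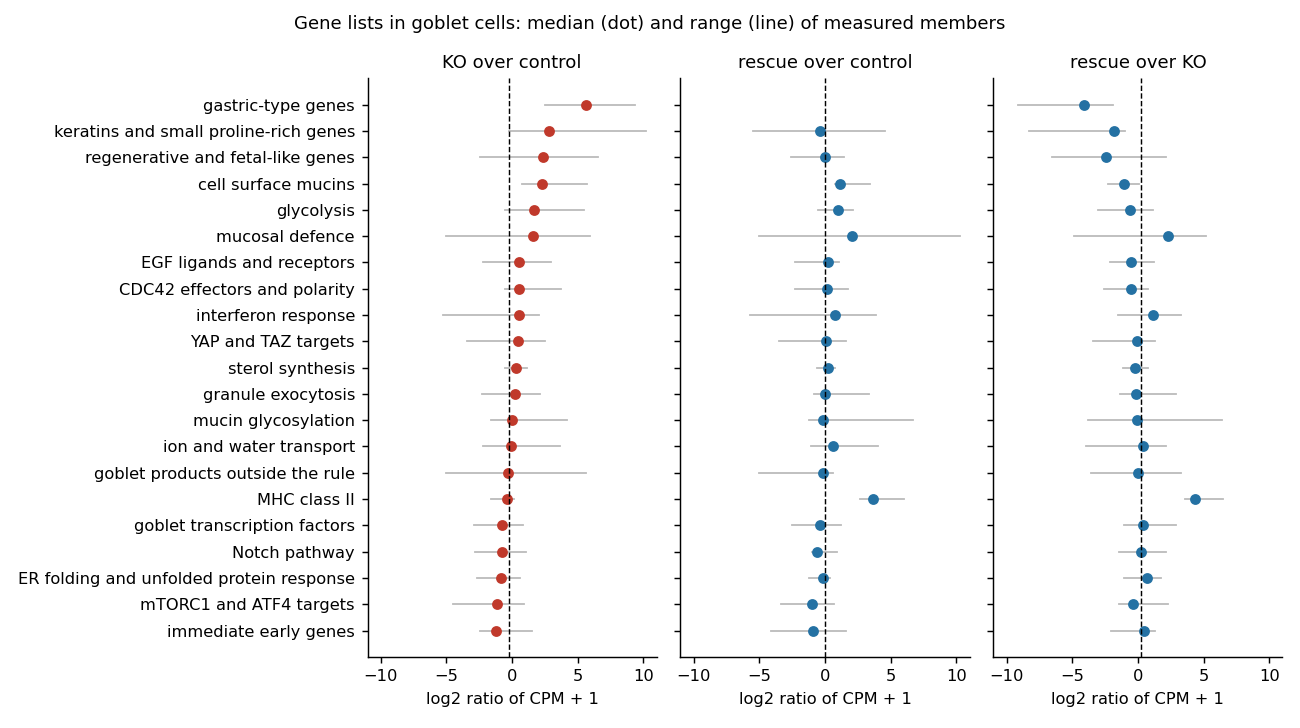
Median log2 ratio (dot) and range (line) of the measured members of each gene list with at least 3 of them in goblet cells, for KO over control, rescue over control and rescue over KO; the dashed line is the median of all measured genes. Gastric-type, keratin and regenerative lists lie highest for KO over control, at 5.62, 2.79 and 2.33, and lowest for rescue over KO, at -4.11, -1.84 and -2.40.

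These KO and control goblet cells differed in makeup, since 73.6% of the KO cells and 35.5% of the control cells were in the most loaded class. Restricted to cells with at least 10% mucus UMIs, the median log2 ratio of the KO over the control was 7.25 for the gastric-type list, 1.45 for the regenerative list, 1.42 for keratins and small proline-rich genes, 0.89 for glycolysis and 1.57 for surface mucins. It was -0.88 for the folding list, -1.35 for immediate early genes, -0.63 for the mTORC1 and ATF4 list and -0.26 for the fate genes. The direction of each of these 9 lists, though not its size, was the same in this class as over all goblet cells. The gastric-type value of 7.25 rests on 6 genes, none of which reached the UMI minimum in the control pool. That pool held 373758 UMIs in this class, against 3885777 in the KO, so that 0 UMIs allow up to 9.87 CPM. *Tff1* and *Anxa10*, at 0 there, were set against a pseudocount of 1 CPM. The value is therefore no support for the list and does not show a larger difference than the 5.62 over all goblet cells. The median of all measured genes in this class was -0.19, so the fate genes lay near it. Over all goblet cells the fate genes stood at -0.75 beside -0.23. Medians fell for YAP and TAZ targets (0.04, against 0.46), CDC42 effectors (0.22, against 0.54) and interferon response (0.01, against 0.52). They rose for mucosal defence (2.35, against 1.56) and slightly for exocytosis (0.27, against 0.24). The median of the Notch list was 0.0022 in this class, against -0.75 over all goblet cells, and that of ion and water transport 0.48, against -0.07. When library size was set by the median of gene ratios, the median of all genes moved from -0.23 to 0.01. Of the genes past 2-fold 58.3% were then higher in the KO, against 41.3% under CPM. Over all genes 1117 were at least 2-fold lower in the KO, against 1695 under CPM. All 136 ratios of named genes past 2-fold in the 3 comparisons stayed past it in the same direction. Many of these genes were named for large ratios or after their values were seen, so this count is no support for them.

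**Figure D4:**
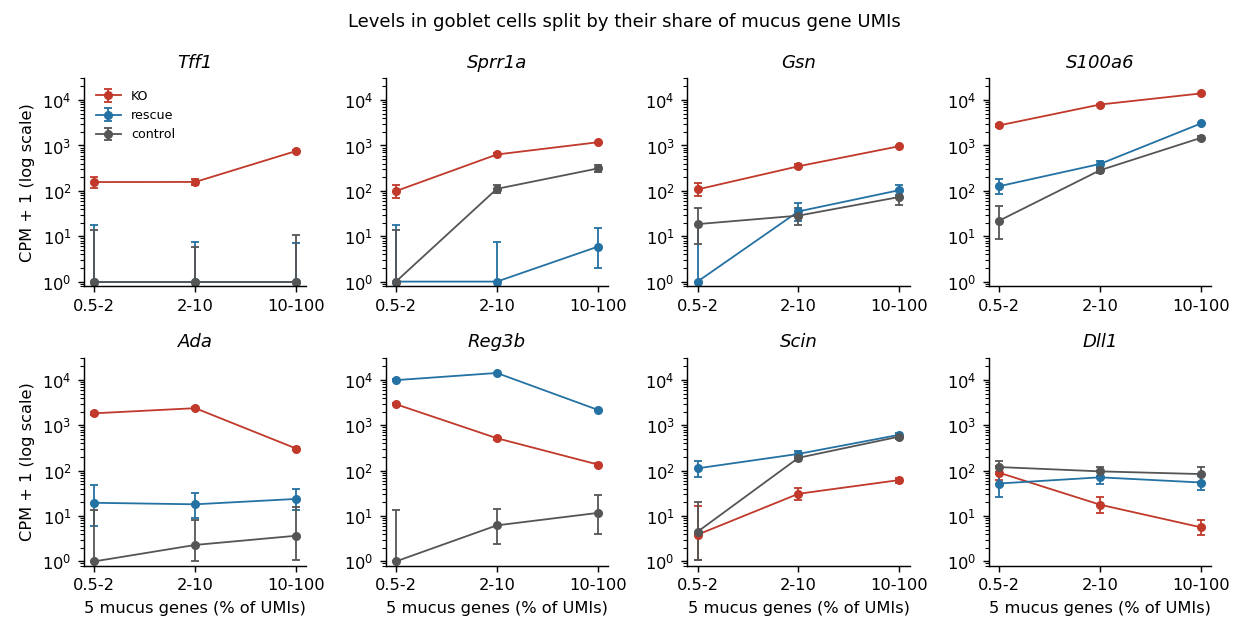
Level in CPM plus 1, on a log axis, of 8 genes in goblet cells split by the share of their UMIs in the 5 mucus genes, with 95% Poisson intervals, for KO, rescue and control. In the KO *Tff1*, *Sprr1a*, *Gsn* and *S100a6* increase with mucus share and *Ada* is lowest in the last class, and in the rescue *Reg3b* is lowest in the last class and *Scin* highest.

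For the rescue against the KO, 8650 genes were measured, of which 1177 (13.6%) were at least 2-fold higher and 737 (8.52%) at least 2-fold lower in the rescue, with a median log2 ratio of 0.23. The KO pool is the same as in the comparison with the control, so both comparisons share its cells. The stomach and fetal-like genes were low in rescue goblet cells. All 7 measured gastric-type genes were at least 2-fold lower in rescue than in KO goblet cells, with a median of -4.11, and 5 of them reached 20 UMIs in the KO pool alone, so that this count too is no support for the list. Of 22 regenerative and fetal-like genes 21 were at least 2-fold lower and 1 higher, beside 8.52% lower and 13.6% higher over all genes, with a median of -2.40, and of 11 keratin and small proline-rich genes 10 were at least 2-fold lower. In these lists 9 and 4 genes reached 20 UMIs in the KO pool and not in the rescue pool. *Tff1* was at least 269-fold lower in rescue than in KO goblet cells, with no UMI in 39 rescue goblet cells. *Anxa10* had 1.41 CPM in rescue goblet cells against 650.3 CPM in KO goblet cells, and *Sprr1a* 2.12 against 976 CPM, 459.7-fold (157 to 2230.03) lower in the rescue.

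Not all KO genes were low in the rescue. *S100a6* had 1507 CPM in rescue goblet cells against 11840.3 CPM in KO goblet cells, and stood 2.78-fold (2.56 to 3.02) above the control. *S100g* had 292 CPM in the rescue, 3.57-fold (3.23 to 3.96) lower than in the KO and 83.3-fold (35.4 to 258) higher than in the control. *Reg4*, a secreted lectin of the regenerating islet-derived family, had 22.6 CPM in rescue goblet cells against 693 CPM in KO goblet cells, and was also 13.7-fold (9.58 to 20.3) lower in rescue than in control goblet cells. Folding genes had 6 of 29 at least 2-fold higher and 1 lower in rescue than in KO goblet cells, beside 13.6% and 8.52% of all genes, with a median log2 ratio of 0.70. Of 19 measured fate genes 5 were at least 2-fold higher and 2 lower in rescue than in KO goblet cells. *Scin* was 7.65-fold (6.60 to 8.87) higher, *Dll1* 4.68-fold (3.38 to 6.50) higher and *Bhlha15* 12.5-fold (5.14 to 34.5) higher in rescue than in KO goblet cells.

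For the rescue against the control 6810 genes were measured, of which 756 (11.1%) were at least 2-fold higher and 569 (8.36%) at least 2-fold lower, with a median log2 ratio of 0.01. *Reg3b*, an antimicrobial lectin on chromosome 6, had 401 CPM in KO, 8315 in rescue and 5.61 in control goblet cells, and *Reg3g* 128, 4757 and 11.9 CPM. *Reg3b* was 1482-fold (752 to 3433) higher in rescue than in control goblet cells. All 39 rescue goblet cells held it, but free RNA was also high, since after thinning 63.2% of rescue goblet cells and 44.9% of rescue immune barcodes held a UMI, and the other rescue epithelial cells had 13383 CPM. *St3gal4*, a sialyltransferase that caps mucin glycans, had 2.85 CPM in KO, 318 in rescue and 2.10 in control goblet cells, and 300.4 CPM in the other rescue epithelial cells. The mucosal defence list had 8 of 13 measured genes at least 2-fold higher and 2 lower in rescue than in control goblet cells, beside 11.1% and 8.36% of all genes. In rescue over KO goblet cells 8 of 15 were higher and 2 lower, beside 13.6% and 8.52%. For the KO over the control 10 of 14 were at least 2-fold higher and 4 lower, beside 13.7% and 19.5%. The median log2 ratios were 2.08, 2.28 and 1.56 in this order, and 1.48, 0.21 and 2.35 among the most loaded cells. Of the list 5 genes reached 20 UMIs in the rescue pool and not in the control pool, and 6 in the KO pool and not in the control pool. *Pigr*, the receptor that carries IgA into the lumen, had 391 CPM in KO, 2878 in rescue and 1519 in control goblet cells.

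MHC class II genes were higher in rescue goblet cells, with 6 of 6 measured genes at least 2-fold higher than in the control and 6 of 6 at least 2-fold higher than in the KO, at median log2 ratios of 3.65 and 4.33, beside 11.1% and 13.6% of all genes. All 6 reached 20 UMIs in the rescue pool, 3 of them in the KO pool and 1 in the control pool, so that 5 and 3 of them were measured through the rescue pool alone in the 2 comparisons and the counts are no support for the list. The invariant chain *Cd74* had 4.46 CPM in KO, 482 in rescue and 6.31 in control goblet cells, and the class II chain *H2-Ab1* had 4.64, 137 and 16.1 CPM. After thinning 15.8% of rescue goblet cells held a *Cd74* UMI, against 13.7% of rescue immune barcodes and 66.3% of the other rescue epithelial cells. Immune cells can express class II genes themselves, and the list summed to 1301.5 CPM in KO, 1484.6 in rescue and 269.8 in control immune barcodes, so these barcodes do not measure free RNA of *Cd74*, whose part in the goblet level was not tested. Unthinned, the median depths were 30720 UMIs in rescue goblet cells and 4848.5 in rescue immune barcodes. Among the most loaded rescue cells *Cd74* stood at 88.0 CPM. Of 16 measured interferon response genes 7 were at least 2-fold higher and 2 lower in rescue than in control goblet cells, and 7 of the list reached 20 UMIs in the rescue pool and not in the control pool.

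Hemoglobin genes, marks of red blood cells, were among the highest by ratio, with *Hbb-bs* at 9.28 CPM in KO, 2503 in rescue and 26.0 in control goblet cells, almost wholly from 1 rescue cell. Without the cell with the most *Hbb-bs* UMIs in each pool its log2 ratio was -1.61 for the rescue over the control and -0.27 for the rescue over the KO. The lowest genes of the rescue over the control were defensin-related and rested on few control cells. *Gm15284*, *Gm14851* and *AY761184* had 3087, 893 and 473 CPM in KO, 53.1, 13.4 and 17.7 in rescue and 23908, 5785 and 5216 in control goblet cells. In 1 control cell lay 69.0%, 68.4% and 73.1% of their control UMIs. Their log2 ratios in the rescue over the control were -8.79, -8.65 and -8.13. Without the cell with the most UMIs of the gene in each pool they were -7.30, -7.18 and -6.43, and without all cells of at least 1% alpha-defensin UMIs -1.85, -1.30 and -2.11.

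Several lists placed the rescue nearer the control than the KO. For the rescue over the control, 3 of 28 measured folding genes were at least 2-fold lower and none higher, beside 8.36% and 11.1% of all genes (median -0.13), and 2 of 14 regenerative genes were at least 2-fold higher and 4 lower (median -0.04). Goblet products outside the rule had none of 20 at least 2-fold higher and 2 lower, beside 11.1% and 8.36% of all genes. For the rescue over the KO 5 of 22 were higher and 5 lower, beside 13.6% and 8.52%. The medians of this list were -0.16 and -0.03 in the same order, beside 0.01 and 0.23 over all genes. Other lists kept a distance from the control. Glycolysis had 8 of 13 measured genes at least 2-fold higher and none lower in rescue than in control goblet cells (median 1.02). The mTORC1 and ATF4 list had 7 of 15 lower and none higher (median -0.97). All 15 reached 20 UMIs in the control pool but only 7 in the rescue pool, so the others were measured through the control pool alone. That count and median are therefore no support for the list. Immediate early genes had 8 of 19 lower and 2 higher (median -0.91). *Ang4* stayed low, 33.8-fold (26.6 to 43.6) lower in rescue than in control goblet cells, as did *F3*, 11.9-fold (7.80 to 19.2) lower, and *Thbs1*, 11.7-fold (9.27 to 14.8) lower.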

How the data were processed

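Crypt cells were dissociated for 1 h with 3x TrypLE, 4000 to 5000 cells were harvested per library, and libraries used the 10x Genomics Chromium 3' kit, version 3, per the labels' protocols. The deposited matrices hold raw UMI counts per gene and barcode. Per the file headers they were written by Cell Ranger 3.0.2 for the KO and control and 3.1.0 for the rescue, whereas the submitters' processing notes name 1.3.0. No build is named in the sources used here. Of 28692 gene identifiers 28339 (98.8%) were found in GENCODE release 21 for mouse (GRCm38), from which gene coordinates were taken, and promoters came from RefSeq (GRCm38.p6). Antisense and overlapping genes were not separated.

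Goblet barcodes were found by the rule above. Other epithelial cells met the same limits on depth, mitochondrial UMIs, *Epcam* and *Ptprc*, and immune barcodes had at least 2 *Ptprc* and 0 *Epcam* UMIs. UMIs were summed per library and population and given as CPM. Log2 ratios were taken with a pseudocount of 1 CPM over genes with at least 20 UMIs in at least 1 of the 2 pools, and past 2-fold means a log2 ratio of at least 1 in size, which is a fold and not a test. Intervals are 95% exact ones (Poisson for levels, Clopper-Pearson for shares, conditional binomial for ratios). At 20 UMIs they are wide. A gene at 0 in a pool was set to a floor of 3 UMIs over that pool for the words "at least". Shares of cells were compared after thinning to 2000 UMIs, which left out 17 KO, 1 rescue and 3 control goblet cells. Doublets were not removed in the main values. A score against simulated doublets would have removed 16 KO, 0 rescue and 0 control goblet cells.

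Named were the 10 highest and 10 lowest genes of the KO over the control and the 5 highest and 5 lowest of the other comparisons, among genes with at least 50 CPM in 1 pool and an interval leaving out 1. Rule genes, mitochondrial, ribosomal, sex-linked, immunoglobulin and alpha-defensin genes were left out of this ranking. Targeted and fate genes and the leading or most abundant members of 22 gene lists were also named. Further genes were chosen after their values were seen. Of the list members 4 symbols were not in the files. Goblet cells, gene lists and comparisons were all chosen with earlier results of these data known. The computation of ratios and intervals was checked on simulated counts. Alternatives changed the cell limits, the scaling, the pseudocount, the UMI minimum and single barcodes. Python 3.11.15 was used with numpy 2.4.6, scipy 1.17.1, pandas 2.3.3, scikit-learn 1.9.0 and matplotlib 3.10.9.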

Additional observations from a re-analysis of the deposited data

Results flagged for a closer look

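Some genes had ratios of opposite direction in goblet cells and in the other epithelial cells of the same libraries, and none of these differences was tested. *Muc2* had a log2 ratio of 1.09 in goblet cells and -1.43 in the other epithelial cells for the KO over the control, and the secreted lectin gene *Reg4* had 1.16 and -2.63. For *Muc2* the goblet value follows from a gene the rule used. *Guca2a* had a log2 ratio of 1.64 in goblet cells and -1.44 in the other epithelial cells for the rescue over the KO. *Apoa4*, an enterocyte apolipoprotein gene, had 2.40 and -1.36 for the rescue over the control.

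Paneth cell genes also lay in opposite directions for the rescue over the KO. *Lyz1* had a log2 ratio of -4.24 in goblet cells and 6.41 in the other epithelial cells, *Defa24* had -1.02 and 10.72, *Gm15284* -5.84 and 11.60, *Gm14851* -5.95 and 10.12, and *AY761184* -4.67 and 10.78. The Paneth cell level of the other KO epithelial cells was low, at 18.3 CPM of *Lyz1*, against 1647 CPM in the other rescue epithelial cells. The hemoglobin gene *Hbb-bs* had -1.39 in goblet cells and 1.96 in the other epithelial cells for the KO over the control.

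Barcodes left out by the mitochondrial limit held goblet cell transcripts too. They numbered 114 in the KO, 15 in the rescue and 78 in the control, and entered none of the levels above.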

How the results depend on the processing

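No paired analysis was possible because each genotype had 1 library, and no replicate could be left out. Under 10% in place of 20% as mitochondrial limit, the goblet share was 17.2% in the KO and 13.6% in the rescue, and 252 genes were at least 2-fold higher and 361 lower in the rescue over the control and 769 higher in the rescue over the KO. A 5-gene threshold of 2% gave a KO share of 12.6%, and a minimum of 5000 UMIs 12.8%. With any *Mki67*, 2073 genes were higher in the rescue over the KO. Cells weighted equally gave 938 genes lower in the rescue over the control. Median-of-ratios scaling gave 1117 genes lower in the KO over the control and 696 higher in the rescue over the KO, and a pseudocount of 5 CPM 758 higher in the rescue over the KO. A minimum of 1 UMI gave 3218 lower in the KO over the control, 1432 higher and 1699 lower in the rescue over the control and 2216 higher in the rescue over the KO. Thinning to 2000 UMIs gave 515 higher and 324 lower in the KO over the control, 66 and 138 in the rescue over the control and 176 and 452 in the rescue over the KO, and turned the median of 3 mTORC1 and ATF4 targets to 0.45 for the KO over the control and of 3 interferon genes to -1.96 for the rescue over the KO.

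The following were added after the data were seen. A 5-gene threshold of 10% gave shares of 10.8% in the KO, 3.31% in the rescue and 4.27% in the control, 160 genes higher and 288 lower in the rescue over the control and 667 higher in the rescue over the KO. It turned *Defa24* to 0.61 for the KO over the control, *Apoa4* to -0.77 for the rescue over the control and *Ccl9* to -0.17 for the rescue over the KO. Without a mitochondrial limit the shares were 11.3%, 3.79% and 5.21%. Without the barcodes of at least 1% alpha-defensin UMIs *Hbb-bs* turned to -1.79 for the rescue over the control and -0.14 for the rescue over the KO, and *Defa24* to 0.72 for the rescue over the KO. Without the barcode with the most UMIs of the gene in each pool, the rescue over the control and the rescue over the KO were -0.77 and -0.24 for *Hbb-bt*, -1.61 and -0.27 for *Hbb-bs* and -0.37 and -0.20 for *Hba-a1*, and the rescue over the KO was -0.50 for *Hba-a2*. The cause of the other shifts was not tested. Of 136 named gene ratios past 2-fold, 135 stayed past it without cells of high doublet score and 136 under median-of-ratios scaling. Without the top barcode of each pool 126 did, and 107 of the 124 measurable at the 10% threshold did. Many of these genes were named for large ratios or after their values were seen, so these counts are no support for them. Depth limits the rescue and control pools, where 3 UMIs come to 2.12 and 2.10 CPM.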

Other observations

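Retinol-binding, fatty acid-binding and apolipoprotein transcripts of enterocytes were measured in goblet cells as well. *Rbp2* had 5661 CPM in KO, 2197 in rescue and 104 in control goblet cells, *Fabp1* 2882, 1674 and 63.1 CPM, and *Apoa4* 2684, 263 and 49.1 CPM. Within the KO *Rbp2* was at 6088 CPM in cells with 0.5 to 2% mucus UMIs, 15158 CPM in cells with 2 to 10% and 2271 CPM in cells with at least 10%. Without the 16 KO goblet cells of high doublet score the log2 ratio of *Rbp2* in the KO over the control was 4.68, against 5.76 with them.

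Antimicrobial and barrier genes of the goblet cell showed separate orders. *Lypd8*, which encodes a protein that keeps flagellated bacteria from the mucosa, had 5370.1 CPM in KO, 4509 in rescue and 1683 in control goblet cells. *Dmbt1*, a scavenger receptor gene of the mucus, had 148, 722 and 52.6 CPM, and *Reg1* 71.9, 1312 and 22.4 CPM. *Retnlb*, a resistin-like goblet cell product induced by helminths and bacteria, had 1.78, 26.2 and 22.4 CPM and was seen in 3 KO, 7 rescue and 3 control cells. The goblet cell genes *Rep15* and *Bcas1* had 730.4 and 256 CPM in KO, 292 and 122 CPM in rescue and 377 and 116 CPM in control goblet cells.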
